A study of Homo sapiens with 12 samples.

Results

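The genes that build and dress caveolae were followed in bladder cancer cells depleted of the histone methyltransferase subunit KMT9α. The members were the caveolins CAV1 and CAV2, the cavins CAVIN1, CAVIN2 and CAVIN3, the EH domain proteins EHD1, EHD2 and EHD4, and the F-BAR proteins PACSIN2 and PACSIN3. They were taken by symbol, and all 10 were found among the 23064 gene symbols of the deposited count tables. RNA was sequenced from CAL-29 and 5637 cells, established human bladder carcinoma lines of wild-type genotype in the labels, on day 3 after transfection with a control siRNA (siCtrl) or an siRNA against KMT9α (siKMT9α, named si270 in the tables and not specified in the labels, taken as siKMT9α#1 from the written account of the RNAseq), with 3 libraries for each siRNA in each line. The culture medium, the transfection reagent and the siRNA concentration differed between the lines, so these and the cell line cannot be told apart. The sources used here do not say whether the 3 libraries of a group came from separate cultures, and the p-values then measure only the spread between these libraries.

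Caveolae are small flask-shaped pits of the plasma membrane that buffer membrane tension, organise signalling receptors and take part in endocytosis. Caveolins are inserted into the inner membrane leaflet, cavins form a coat around the caveolin assemblies, EHD2 sits as a ring of ATPases at the neck, and PACSIN2 bends the membrane during formation of the pit. Caveolae are best known from endothelium, fat cells, fibroblasts and muscle, but many carcinoma lines carry the same proteins.

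N6AMT1, the gene of KMT9α, was measured first. Its levels in CAL-29 cells were 11.4, 10.2 and 9.67 CPM (counts relative to library size, with TMM scaling) for siCtrl and 2.82, 2.93 and 1.99 CPM for siKMT9α. In 5637 cells the siCtrl libraries held 13.4, 13.2 and 13.3 CPM of N6AMT1 and the siKMT9α libraries 3.78, 2.22 and 2.59 CPM. Responses were tested within each line by the quasi-likelihood method of edgeR, and rose or fell is written of genes with an unadjusted p below 1e-06, beside which the Benjamini-Hochberg adjusted p is given. N6AMT1 fell in both lines, by 2.0 (SE 0.15, adjusted p = 1.383e-10) and by 2.22 (SE 0.12, adjusted p = 2.064e-15) on the log2 scale, and the libraries went with their labels.

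Total counts on the transcripts used lay between 24479348.5 and 35151256.5 per library. Epithelial identity was checked with 10 markers, of which 10 reached 1 CPM in CAL-29 cells and 9 in 5637 cells. Summed over that list, the markers moved from 12780 to 13470 CPM in siCtrl to 6241 to 6443 CPM in siKMT9α libraries of CAL-29 cells. In 5637 cells the sums moved from 9048 to 9482 CPM to 6239 to 6469 CPM. The largest parts came from KRT8 in CAL-29 (means 4570 and 1702 CPM) and KRT7 in 5637 cells (3641 and 1875 CPM). The markers did not all move alike. In CAL-29 cells KRT7 was higher (log2 fold change 0.28) and GATA3 changed little (-0.05). In 5637 cells TP63 rose (0.36), and the other markers were lower in each line. The marker sums of other caveola-bearing cell types were low: at most 13.3 CPM for 4 endothelial genes, 23.8 CPM for 4 fibroblast genes, 28.8 CPM for 3 smooth muscle genes and 0.885 CPM for 3 adipocyte genes, with DES at 0 in both groups of CAL-29 cells. In CAL-29 cells the endothelial, fibroblast and smooth muscle sums were lower with siKMT9α, at 5.13 to 6.81 CPM, 7.47 to 12.9 CPM and 3.93 to 5.01 CPM, and in 5637 cells the endothelial sum was lower, at 2.62 to 3.29 CPM and then 0.910 to 1.28 CPM. Single genes carried these sums, since KDR (log2 fold change -2.68), COL3A1 (-1.14) and CNN1 (-5.41) fell in CAL-29 cells, whereas CDH5, another endothelial marker, rose there (2.45) and fell in 5637 cells (-4.24). Their part in the results that follow was not tested.

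In siCtrl cells the RNA of caveolae was dominated by CAV1. Divided by the length of the canonical transcript of each gene, which need not be the transcript counted, the level of CAV1 in siCtrl libraries was 261 ± 19.0 CPM per kb (SD, n = 3) in CAL-29 and 279 ± 2.56 CPM per kb in 5637 cells. CAVIN1, the cavin that every caveola coat needs, came after it with 128 ± 5.97 CPM per kb in CAL-29 and 128 ± 3.45 CPM per kb in 5637 cells. Next came CAV2, which joins CAV1 in mixed oligomers, with 101 ± 5.39 and 76.9 ± 1.22 CPM per kb, respectively. EHD1 followed at 41.5 ± 0.925 and 47.4 ± 1.25 CPM per kb, and PACSIN2 stood at 36.1 ± 0.800 and 41.6 ± 0.399 CPM per kb. The order of these 5 genes was the same in both lines, and no neighbours among them overlapped between libraries.

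The rest of the order differed between the lines. In CAL-29 cells EHD2 (19.3 ± 0.794 CPM per kb) stood above PACSIN3 (12.3 ± 0.381), EHD4 (9.19 ± 0.915) and CAVIN3 (6.45 ± 1.08). In 5637 cells PACSIN3 (23.6 ± 0.944 CPM per kb) and CAVIN3 (20.8 ± 0.800) came before EHD4 (16.3 ± 0.346) and EHD2 (16.0 ± 1.02), and the libraries of the last pair overlapped. CAVIN2 was close to undetected, at 0.0542 ± 0.0382 and 0.297 ± 0.0684 CPM per kb. The plot of levels per transcript length shows the gap of CAVIN2 to every other member.

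**Figure D1:**
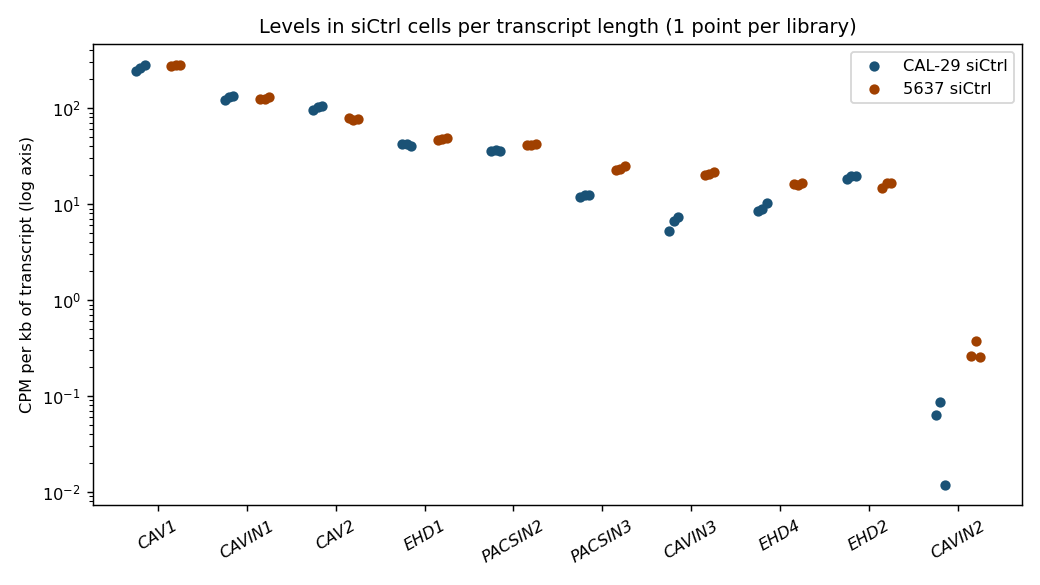
Level of each member in siCtrl cells, in CPM per kb of canonical transcript on a log axis, with 1 point per library (blue, CAL-29; brown, 5637). CAV1 lies highest in both lines, at 261 and 279 CPM per kb on average, CAVIN2 lies lowest, and CAVIN3, PACSIN3 and EHD4 lie lower in CAL-29 than in 5637 cells.

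The control groups were compared directly in a model of all 12 libraries, in which a gene was called at a Benjamini-Hochberg adjusted p below 0.05 in edgeR's quasi-likelihood test. The 2 lines are different cell lines grown and transfected differently, and 85.3% of the 15411 genes tested were called. Of the members, 8 of 10 were called, a share close to that background. CAVIN3, a cavin that binds protein kinase C delta, was lower in CAL-29 than in 5637 siCtrl cells by 1.67 on the log2 scale (log2 difference -1.67, adjusted p = 2.919e-15). The largest difference was that of CAVIN2 (-2.41, adjusted p = 2.639e-05), on 25 to 35 counts per siCtrl library in 5637 and 1 to 7 in CAL-29 cells. PACSIN3 (log2 difference -0.92, adjusted p = 8.263e-15) and EHD4 (-0.80, adjusted p = 1.285e-14) were also lower in CAL-29 cells. So, by less, were PACSIN2 (-0.18, adjusted p = 7.342e-05) and EHD1 (-0.17, adjusted p = 0.0002953). CAV2 was higher in CAL-29 cells (0.41, adjusted p = 1.37e-09), as was EHD2 (0.30, adjusted p = 1.147e-05). CAV1 and CAVIN1 were not called, with differences of -0.07 (adjusted p = 0.1159) and 0.03 (adjusted p = 0.5293). For CAV1 this rests on 1 library, since without the third siCtrl library of CAL-29 cells its difference was -0.13 with an adjusted p of 0.004018.

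Upon depletion of KMT9α, CAV1 fell in both lines and CAV2 fell in CAL-29 cells. CAV1, the scaffold without which caveolae do not form outside muscle, was at 621, 662 and 712 CPM in the siCtrl libraries of CAL-29 cells and at 289, 295 and 283 CPM in the siKMT9α libraries. The siKMT9α libraries all lay below the siCtrl libraries, and the lowest siCtrl value was far above the highest siKMT9α value. CAV1 fell by 1.20 on the log2 scale (SE 0.053, adjusted p = 3.708e-14), a change of -56.5% in its level. In bulk RNA of a culture, fewer cells with caveolae and less CAV1 RNA per cell cannot be told apart. In 5637 cells CAV1 was at 658, 671 and 671 CPM with siCtrl and at 460, 468 and 466 CPM with siKMT9α. The replicates were tight and the groups apart there too, but the fall was smaller, 0.52 on the log2 scale (log2 fold change -0.52, SE 0.029, adjusted p = 3.063e-15).

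CAV2 lies on the same strand of chromosome 7 as CAV1 (GRCh37 chr7:115927434-116148595 for CAV2 and chr7:116165048-116201233 for CAV1), with 16453 bases between the end of one and the start of the other. In CAL-29 cells CAV2 was at 290, 315 and 319 CPM with siCtrl and at 188, 204 and 199 CPM with siKMT9α. It fell by 0.65 on the log2 scale (SE 0.050, adjusted p = 3.701e-10), and the groups did not overlap. In 5637 cells the 3 siCtrl libraries held 223, 219 and 221 CPM of CAV2 and the siKMT9α libraries 203, 222 and 209 CPM. These overlapped, the log2 fold change was -0.06 (SE 0.035, adjusted p = 0.1023), and its 95% interval ran from -0.13 to 0.00. The test for CAV2 in 5637 cells thus did not pass, while the interval leaves room for a fall of up to 0.13 on the log2 scale.

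The starts of CAV1, CAV2 and EHD2 are shown because these genes gave different responses: CAV1 fell in both lines, CAV2 fell in CAL-29 cells and did not pass the test in 5637 cells, and EHD2 rose in both lines. Each sequence holds the 250 bases before the first start site that RefSeq lists for the gene (GRCh38.p14), 5′ to 3′ on the strand of the gene, and capitals mark the letters GGGCGG on either strand, the core of an Sp1 site.
CAV1 (chr7:116524759-116525008, + strand): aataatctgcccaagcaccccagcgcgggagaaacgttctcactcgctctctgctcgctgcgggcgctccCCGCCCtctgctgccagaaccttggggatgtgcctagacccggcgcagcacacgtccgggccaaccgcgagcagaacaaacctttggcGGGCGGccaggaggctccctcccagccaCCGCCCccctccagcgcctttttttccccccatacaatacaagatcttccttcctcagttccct
CAV2 (chr7:116499488-116499737, + strand): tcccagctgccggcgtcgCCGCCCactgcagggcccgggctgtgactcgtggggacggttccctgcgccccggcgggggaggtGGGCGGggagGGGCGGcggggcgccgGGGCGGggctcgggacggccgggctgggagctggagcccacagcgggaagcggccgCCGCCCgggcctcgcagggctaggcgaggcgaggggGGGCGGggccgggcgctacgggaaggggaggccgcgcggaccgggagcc
EHD2 (chr19:47713172-47713421, + strand): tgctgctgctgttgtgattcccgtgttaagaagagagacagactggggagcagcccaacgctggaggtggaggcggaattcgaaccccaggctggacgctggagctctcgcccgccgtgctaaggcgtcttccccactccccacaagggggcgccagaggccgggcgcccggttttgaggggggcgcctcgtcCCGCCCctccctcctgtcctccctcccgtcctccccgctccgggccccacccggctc
GGGCGG occurred 3 times before CAV1, 6 times before CAV2 and 1 time before EHD2, and 42.6% of 35116 RefSeq windows of this length held it at least once. The letters GGAATG (TEAD), TGANTCA (AP-1) and the CArG box of serum response factor, searched on both strands, were in none of these 3 windows, whereas 11.9%, 6.57% and 1.16% of all windows held them. The GC content was 63.6% for CAV1, 83.2% for CAV2 and 69.6% for EHD2. A promoter window was found for 7 of the 10 members, and CAVIN1, CAVIN3 and PACSIN3 had none under their symbol. The matches describe these letters only.

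The cavins were lower with siKMT9α wherever they could be measured well. CAVIN1, also called PTRF, on chromosome 17 (GRCh37 chr17:40554467-40575274, minus strand), was at 452, 480 and 492 CPM in siCtrl and at 275, 277 and 285 CPM in siKMT9α libraries of CAL-29 cells. In 5637 cells it was at 436, 440 and 456 CPM with siCtrl and at 243, 248 and 256 CPM with siKMT9α. The groups were well apart in both lines. CAVIN1 fell by 0.77 on the log2 scale in CAL-29 cells (SE 0.048, adjusted p = 1.106e-11) and by 0.83 in 5637 cells (SE 0.032, adjusted p = 5.239e-19).

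CAVIN3 was a minor cavin in these cells. Its siCtrl libraries held 5.63, 7.15 and 7.82 CPM in CAL-29 cells, and its siKMT9α libraries 2.34, 3.23 and 2.7 CPM. In 5637 cells CAVIN3 was at 20.1, 20.7 and 21.7 CPM with siCtrl and at 14.3, 15.2 and 15.0 CPM with siKMT9α. Neither line showed overlap, and CAVIN3 fell by 1.31 on the log2 scale in CAL-29 (SE 0.17, adjusted p = 5.368e-07) and by 0.49 in 5637 cells (SE 0.067, adjusted p = 2.202e-07). Both calls lay near the threshold: in CAL-29 cells the unadjusted p rose to 4.132e-06, 2.808e-06 and 4.058e-06 without siCtrl replicate 2, siKMT9α replicate 1 or siKMT9α replicate 3, and in 5637 cells to 1.728e-06 and 1.03e-06 without siCtrl replicate 3 or siKMT9α replicate 3, and to 8.585e-06 in the model of all 12 libraries. Of the exon bases of the canonical CAVIN3 transcript, 42.6% overlap a gene on the other strand, and whether the counting used strand is not given in the sources used here, so reads of these genes may have been added together.

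CAVIN2, the cavin linked to membrane curvature and common in endothelium and fat, was close to the limit of detection. In CAL-29 cells it had 5, 7 and 1 counts with siCtrl and 13, 8 and 4 counts with siKMT9α, which is below the filter on low counts, so its response was not tested there. In 5637 cells the 25, 35 and 27 siCtrl counts stood above the 8, 13 and 7 siKMT9α counts. Its log2 fold change of -1.39 (SE 0.35, unadjusted p = 0.0004896, adjusted p = 0.0009349) did not pass 1e-06.

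EHD2, the neck protein that holds caveolae at the cell surface, went against the caveolins and cavins. In CAL-29 cells EHD2 was at 67.1, 71.8 and 71.6 CPM with siCtrl and at 88.8, 93.9 and 102 CPM with siKMT9α. In 5637 cells it went from 50.3, 57.2 and 56.0 CPM to 124, 119 and 118 CPM. Every siKMT9α library stood above every siCtrl library of its line. EHD2 rose by 0.43 on the log2 scale in CAL-29 cells (SE 0.055, adjusted p = 5.683e-07) and by 1.14 in 5637 cells (SE 0.044, adjusted p = 3.28e-19), a fold change of 2.20 in the latter. The call in CAL-29 cells was near the threshold, with an unadjusted p of 2.819e-06, 1.837e-06 and 5.64e-06 without siCtrl replicate 2, siKMT9α replicate 2 or siKMT9α replicate 3, while its log2 fold change stayed between 0.39 and 0.48 when any 1 library was left out.

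EHD1 and EHD4, paralogs with roles in endosomal recycling and at caveolae, gave other values: EHD1 fell in CAL-29 and rose in 5637 cells, and EHD4 passed the threshold in neither line. EHD1 was at 195, 194 and 186 CPM with siCtrl and 134, 130 and 135 CPM with siKMT9α in CAL-29 cells. In 5637 cells EHD1 was at 199, 207 and 210 CPM with siCtrl and at 243, 259 and 258 CPM with siKMT9α. These are the fall in CAL-29 cells (log2 fold change -0.52, SE 0.046, adjusted p = 2.239e-09) and the rise in 5637 cells (0.30, SE 0.034, adjusted p = 7.539e-09), without overlap of the groups in either line. EHD1 was the member whose calls had opposite signs in the lines.

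For EHD4, the CAL-29 libraries held 56.7, 58.7 and 67.6 CPM with siCtrl and 72.4, 76.1 and 75.4 CPM with siKMT9α. The 5637 libraries held 102, 99.8 and 103 CPM and then 115, 108 and 114 CPM. EHD4 was higher with siKMT9α in all libraries, with log2 fold changes of 0.29 (SE 0.060, adjusted p = 0.0002219) and 0.15 (SE 0.037, adjusted p = 0.0008399), and neither passed an unadjusted p of 1e-06. In CAL-29 cells the unadjusted p of EHD4 was 9.586e-05 in edgeR's quasi-likelihood test, and the call depended on the setting. EHD4 passed the threshold there without the third siCtrl library (log2 fold change 0.38, unadjusted p = 9.004e-07) and without a filter on low counts (0.30, unadjusted p = 1.456e-07). It also passed in DESeq2 (0.30, unadjusted p = 8.379e-07). Of the exon bases of EHD4, 56.2% overlap a gene on the other strand, with the same limit as for CAVIN3.

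PACSIN2 and PACSIN3, membrane-bending partners of EHD proteins and dynamin, separated. PACSIN2 was at 120, 125 and 121 CPM in siCtrl and at 81.8, 81.3 and 80.2 CPM in siKMT9α libraries of CAL-29 cells. In 5637 cells it was at 131, 131 and 133 CPM with siCtrl and at 102, 101 and 99.6 CPM with siKMT9α. PACSIN2 fell in both lines, by 0.59 on the log2 scale (SE 0.046, adjusted p = 3.974e-10) and by 0.39 (SE 0.0345, adjusted p = 7.098e-11). PACSIN3, best known from muscle, was at 23.2, 24.3 and 24.3 CPM with siCtrl and at 31.5, 30.3 and 32.0 CPM with siKMT9α in CAL-29 cells. Its log2 fold change there, 0.38 (SE 0.065, unadjusted p = 9.559e-06, adjusted p = 2.649e-05), missed the threshold. In 5637 cells PACSIN3 was at 41.7, 42.5 and 44.9 CPM with siCtrl and at 41.3, 41.5 and 45.6 CPM with siKMT9α, with a log2 fold change of -0.01 (SE 0.051, adjusted p = 0.9262, 95% interval -0.10 to 0.09). The PACSIN3 libraries of 5637 cells overlapped.

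**Figure D2:**
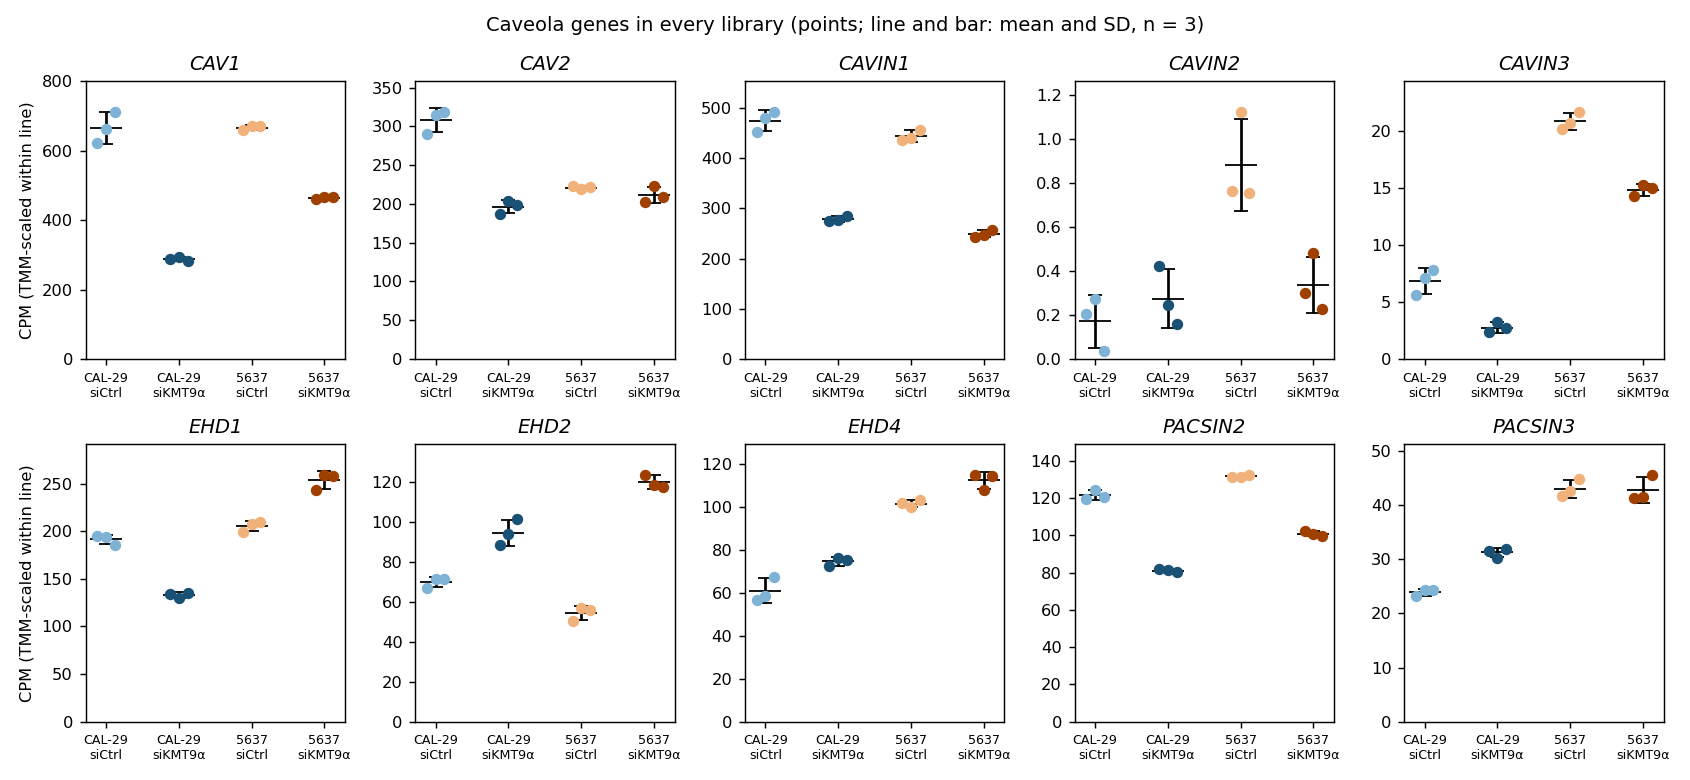
CPM of each member in every library, scaled with TMM within each line, for siCtrl and siKMT9α in CAL-29 (blue) and 5637 cells (orange and brown). Points are libraries, the line and bar are the mean and SD (n = 3), and each panel has its own axis from 0. CAV1, CAVIN1, CAVIN3 and PACSIN2 are lower with siKMT9α in both lines, EHD2 is higher in both, and EHD1 is lower in CAL-29 and higher in 5637 cells.

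As a group, 7 of the 9 members tested in CAL-29 cells passed p of 1e-06, with 6 that fell (CAV1, CAV2, CAVIN1, CAVIN3, EHD1, PACSIN2) and 1 that rose (EHD2). Over all 14682 genes tested in these cells, 29.9% passed, 15.0% lower and 14.9% higher. The median log2 fold change was -0.59 over the members and -0.02 over all genes. In 5637 cells 6 of 10 members passed, with 4 that fell (CAV1, CAVIN1, CAVIN3, PACSIN2) and 2 that rose (EHD1, EHD2). Over all 14367 genes tested there, 35.4% passed, 17.5% lower and 17.9% higher, and the medians were -0.22 over the members and -0.01 over all genes. The median of the members in 5637 cells rests on CAVIN2, which was not tested in CAL-29 cells: with at least 10 counts required in every library, which leaves it out, the median was -0.07. At an adjusted p below 0.05, the members called numbered 9 in CAL-29 (3 higher, 6 lower) and 8 in 5637 cells (3 higher, 5 lower), where 69.5% and 70.6% of all genes tested were called. The siCtrl and siKMT9α libraries did not overlap for 9 of 9 members in CAL-29 and 8 of 10 in 5637 cells, where 72.3% and 72.3% of all genes tested did not overlap. With 3 libraries against 3, an exact permutation test of a single gene cannot go below 0.1, so each call rests on the model across genes.

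**Figure D3:**
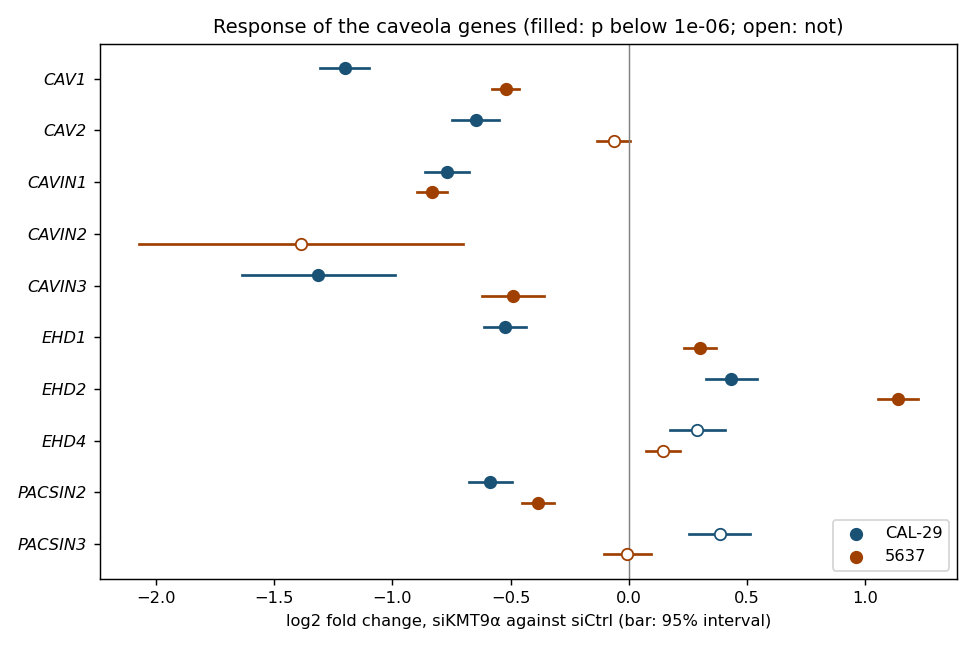
Log2 fold change of each member, siKMT9α against siCtrl, in CAL-29 (blue) and 5637 cells (brown), with 95% intervals as bars; filled points passed an unadjusted p of 1e-06. CAVIN1 (-0.77 and -0.83) and EHD4 (0.29 and 0.15) have bars that overlap between the lines, EHD1 lies on both sides of 0, and CAVIN2 was tested in 5637 cells only.

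The difference of the responses was tested with the interaction of line and siRNA over all 12 libraries, where 50.3% of 15411 genes had an adjusted p below 0.05. Of the members, 8 of 10 did. The fall of CAV1 was greater in CAL-29 cells (CAL-29 minus 5637 -0.66, adjusted p = 3.827e-10), and so were those of CAV2 (-0.57, adjusted p = 1.339e-08) and CAVIN3 (-0.81, adjusted p = 0.0001453). EHD1 differed by -0.81 (adjusted p = 1.324e-12), and EHD2 by -0.69 (adjusted p = 6.201e-09), the latter with the greater rise in 5637 cells. PACSIN3 differed by 0.41 (adjusted p = 0.0001171) and PACSIN2 by -0.18 (adjusted p = 0.006571). For CAVIN1 the difference was 0.08 (adjusted p = 0.2504) with a 95% interval from -0.03 to 0.20, and for EHD4 it was 0.16 (adjusted p = 0.06652). EHD4 was called without the third siCtrl library (0.25, adjusted p = 0.002078) or the first siKMT9α library (0.19, adjusted p = 0.04917) of CAL-29 cells, and without a filter on low counts (0.17, adjusted p = 0.04357). CAVIN2 differed by 2.11 (adjusted p = 0.0141) on few counts, and this was not called without the third siCtrl library (1.63, adjusted p = 0.0538) or the first siKMT9α library (1.68, adjusted p = 0.0885) of CAL-29 cells. Scaled by total counts, which moved the median of all genes from 0.04 to 0.16, PACSIN2 was not called (-0.07, adjusted p = 0.325), and CAVIN1 (0.20, adjusted p = 0.004276) and EHD4 (0.28, adjusted p = 0.001954) were. Of the genes called for the interaction, 56.6% had the more positive response in CAL-29 cells, and 70.4% with total counts.

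These shifts changed the proportions of caveola transcripts within a library. The ratio of CAV1 to CAVIN1 per transcript length was 2.04 ± 0.0599 (SD, n = 3) in siCtrl and 1.51 ± 0.0562 in siKMT9α libraries of CAL-29 cells. In 5637 cells it went the other way, from 2.18 ± 0.0418 to 2.71 ± 0.0601. The ratio of CAV1 to CAV2 was lower with siKMT9α in both lines, at 2.59 ± 0.0819 and 1.77 ± 0.0736 in CAL-29 and at 3.63 ± 0.0737 and 2.64 ± 0.105 in 5637 cells. The ratio of EHD2 to CAV1 went from 0.0740 ± 0.00311 to 0.230 ± 0.0193 in CAL-29 cells. In 5637 cells the same ratio went from 0.0572 ± 0.00327 to 0.181 ± 0.00657. No siCtrl and siKMT9α libraries of a line overlapped in these 3 ratios, and the ratios were given no test of their own. With EHD2 higher and PACSIN2 lower, EHD2 stood above PACSIN2 in every siKMT9α library of CAL-29 (26.5 ± 1.93 against 24.5 ± 0.173 CPM per kb) and of 5637 cells (35.2 ± 0.951 against 31.9 ± 0.422), the reverse of their order in siCtrl. In the first siKMT9α library of CAL-29 cells these genes were nearly level (24.71 against 24.54 CPM per kb), and the size of the gap depends on the canonical lengths used. In 5637 cells CAVIN1 came down to the level of CAV2 (71.7 ± 2.03 against 73.6 ± 3.50 CPM per kb), and these libraries overlapped.

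The remaining paralogs and other genes linked to caveolae or lipid rafts gave 1 call among 8 genes tested in CAL-29 and 1 among 7 in 5637 cells, where 29.9% and 35.4% of all genes were called. Their median log2 fold changes were -0.15 and -0.23. The latter includes PACSIN1, which was near the floor in 5637 cells, with means of 0.666 CPM for siCtrl and 0.453 CPM for siKMT9α. CAV3, the muscle caveolin, was at 0 counts in all libraries but the second siKMT9α library of 5637 cells, which had 1 count. CAVIN4, the muscle cavin, was at 1.22, 1.25 and 0.945 CPM with siCtrl and at 0.844, 0.640 and 0.477 CPM with siKMT9α in CAL-29 cells. CAVIN4 was more abundant in 5637 cells, at 9.04, 8.60 and 8.58 CPM against 6.74, 7.02 and 6.40 CPM. Its log2 fold changes of -0.78 (adjusted p = 0.03153) and -0.38 (adjusted p = 0.0008968) had the sign of CAVIN1 and CAVIN3, and neither passed 1e-06.

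Of the 9 genes of that list, FLOT2, a flotillin that marks raft domains without caveolin, rose in CAL-29 cells (log2 fold change 0.49, adjusted p = 1.904e-08). DNM2, the dynamin that cuts caveolae and clathrin pits from the membrane, rose in 5637 cells (0.45, adjusted p = 9.393e-13). EHD3 had log2 fold changes of -0.48 (adjusted p = 7.802e-05) in CAL-29 and 0.12 (adjusted p = 0.168) in 5637 cells. FLOT1, the partner of FLOT2, had -0.08 (adjusted p = 0.1165) and -0.28 (adjusted p = 5.313e-06), and ROR1, a receptor that scaffolds cavin and caveolin, had -0.22 (adjusted p = 0.1055) and -0.23 (adjusted p = 0.03428). PACSIN1 and NOSTRIN were at or below 1.10 CPM in every library of CAL-29 cells and were not called, and in 5637 cells PACSIN1 was not called and NOSTRIN was below the filter on low counts.

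Clathrin-dependent uptake, the other main route from the surface, was read from 25 genes of the coat, its adaptors and dynamin. In CAL-29 cells 0 of 24 tested rose and 3 fell in edgeR at an unadjusted p of 1e-06, against 29.9% of all genes in either direction. At an adjusted p below 0.05, 7 were higher and 7 lower, against 69.5% of all genes. Those 3 were AP2A2, a large subunit of the AP-2 adaptor (log2 fold change -0.44), EPS15, an early coat protein (-0.43), and CLTB, a clathrin light chain (-0.37). In 5637 cells 7 of 24 rose and 5 fell, against 35.4% of all genes in either direction. DNM2 is among these 7 and was also counted with the genes linked to caveolae. The largest rises there were those of SYNJ1, the phosphatase that sheds the coat (0.63), and ITSN1, a scaffold of coated pits (0.62), and the largest falls were those of DNM1 (-0.56) and AP2A2 (-0.38). The list medians were -0.05 in CAL-29 and 0.08 in 5637 cells, against -0.02 and -0.01 over all genes.

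Endocytic recycling, where EHD1 works with Rab proteins, was read from 19 genes, all tested in both lines. In CAL-29 cells 1 rose and 6 fell, and in 5637 cells 4 rose and 6 fell, against 29.9% and 35.4% of all genes in either direction. The list medians were -0.08 and -0.10. The Rab11 effectors RAB11FIP5 (log2 fold change -1.74 in CAL-29 and -1.55 in 5637 cells) and RAB11FIP1 (-1.31 and -1.21) fell most in both lines. RAB11FIP5 was at 80.7, 77.1 and 82.9 CPM with siCtrl and at 25.2, 23.4 and 23.6 CPM with siKMT9α in CAL-29 cells. RAB35, a Rab of fast recycling that shares effectors with EHD1, rose by 0.99 and 1.15 on the log2 scale. The RAB35 libraries of CAL-29 cells went from 58.8, 58.2 and 59.8 CPM to 119, 116 and 115 CPM. EHBP1, which binds EHD proteins, rose in 5637 cells (0.54, adjusted p = 1.424e-11).

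**Figure D4:**
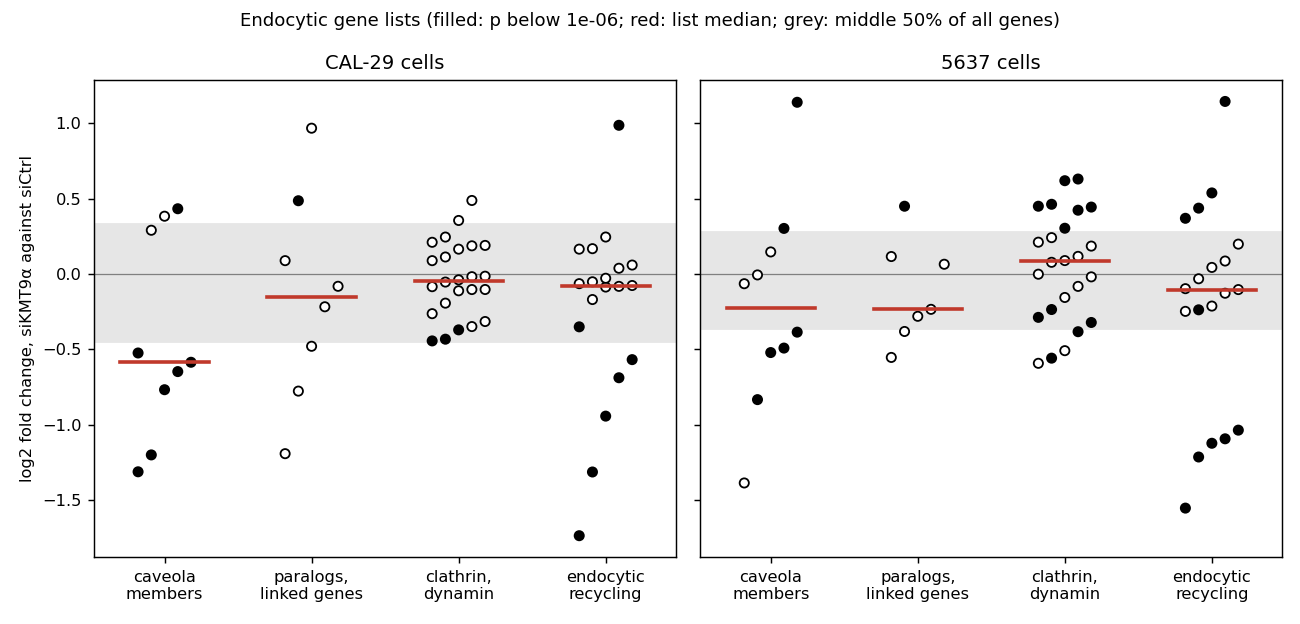
Log2 fold change with siKMT9α of each tested gene in 4 lists, for CAL-29 (left) and 5637 cells (right); filled points passed an unadjusted p of 1e-06, red lines are list medians and the grey band holds the middle 50% of all genes tested. The caveola members have a median of -0.59 in CAL-29 and -0.22 in 5637 cells (-0.07 in a fit that leaves CAVIN2 out), the paralogs and linked genes -0.15 and -0.23, and the clathrin and recycling lists between -0.10 and 0.08. DNM2 is in both the linked and the clathrin list.

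The genes whose pattern was most like that of CAV1 or CAVIN1 were sought by Pearson's r of log2 CPM over the 12 libraries, each line centred on its own mean, among 11913 genes. Those points share their libraries and 2 treatment groups per line, so many genes that moved in both lines score high. For CAV1 they were KRT8 (r = 0.996), a keratin that is also one of the epithelial markers above, ZYX (0.996) and PALLD (0.996) of the actin cytoskeleton, TGM2 (0.996) and LGALSL (0.996). Pearson's r does not measure the size of a response. On the log2 scale TGM2 changed by -1.19 in CAL-29 and -0.51 in 5637 cells, close to CAV1. The changes were larger than those of CAV1 for KRT8 (-1.45 and -0.61), ZYX (-1.51 and -0.73), PALLD (-1.41 and -0.70) and LGALSL (-1.69 and -0.80). For CAVIN1 they were COTL1 (0.998), AKT1 (0.998), WBP2 (0.997), PGRMC1 (0.997) and CHMP5 (0.997). The response of CHMP5 was -0.83 and -0.85, close to CAVIN1. The changes were larger than those of CAVIN1 for COTL1 (-1.30 and -1.54), AKT1 (-1.57 and -1.72), WBP2 (-1.80 and -1.82) and PGRMC1 (-1.33 and -1.42). Among the members, r with CAV1 was 0.980 for PACSIN2, 0.979 for CAVIN3, 0.940 for CAV2, 0.912 for CAVIN1 and 0.579 for EHD1, against -0.685 for EHD2, -0.847 for EHD4 and -0.8485 for PACSIN3. EHD2 had r = -0.909 with CAVIN1.

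The 3′ UTRs of the members were also searched for matches to the siRNAs. ACATTCA and CACATTC, the heptamers that pair with positions 2 to 8 of the antisense strands of the study's siKMT9α#1 and siKMT9α#2, occurred in the 3′ UTR of the canonical transcript of 0 of 10 members. Of 13625 tested genes with a 3′ UTR of at least 50 bases, 14.1% and 12.6% held them. The first of these belongs to the siRNA taken to be the one sequenced.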

How the data were processed

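RNAseq was analysed from 12 libraries, 3 for each of siCtrl and siKMT9α in CAL-29 and 5637 cells. Per the paper's methods and the submitters' processing notes, the authors aligned reads to hg19 with STAR, counted them with Homer and used edgeR. What the authors deposited are estimated counts, 1 row per RefSeq transcript and without normalization, in steps of 0.5, so that 37.3% of values are not whole. Columns with a p-value, its adjusted form and a log2 fold change, also deposited, are the authors' own comparison and were not used. For each symbol, the row with most counts entered the fit after rounding.

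Members and lists were chosen with earlier results of these data known. Each line was tested alone in edgeR 4.0.16 under R 4.3.3 (TMM, filterByExpr, quasi-likelihood F test, two-sided), taking an unadjusted p below 1e-06 as the call, after the study's methods, and Benjamini-Hochberg adjusted p-values over all genes given beside it. The interaction and the contrast of the siCtrl groups came from 1 fit of all 12 libraries at an adjusted p below 0.05. The SE is the size of the log2 fold change divided by the square root of F, and 95% intervals use the normal quantile. Named were all 10 members, the linked genes, N6AMT1, the 2 genes with the largest rise and fall past 1e-06 in each list and line, and the 5 genes most like CAV1 and CAVIN1 with a mean count of at least 50. CLTB was named, and the genes most like CAV1 and CAVIN1 were given with their fold changes, after their values were seen. The scripts were tested on simulated data. Positions, transcript lengths and 3′ UTRs were taken from GENCODE on GRCh37, which hg19 denotes, and promoters from RefSeq on GRCh38.p14. Libraries of 1 group differed beyond counting error (chi-square per degree of freedom 2.22 to 11.7), so spread between libraries, not depth, limits the precision of abundant members.

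Alternatives were no filter, at least 10 counts in every library, other scalings, edgeR's likelihood ratio test, DESeq2 1.42.0, a replicate block, every transcript, the joint model, other thresholds and each library left out. Counts without rounding were added after the data were seen.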

Additional observations from a re-analysis of the deposited data

Results flagged for a closer look

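The responses of 8 members differed between CAL-29 and 5637 cells by the interaction test in edgeR at an adjusted p below 0.05, where 50.3% of all genes did. The difference, CAL-29 minus 5637 on the log2 scale, was -0.66 for CAV1, which fell in both lines. It was -0.57 for CAV2, which fell in CAL-29 cells and did not pass the test in 5637 cells. CAVIN3, which fell in both lines, gave -0.81. EHD1 gave -0.81, with a fall in CAL-29 and a rise in 5637 cells. EHD2 gave -0.69, with a rise in both lines. For PACSIN2 it was -0.18, and this was not called when libraries were scaled by total counts. For PACSIN3 it was 0.41, with neither line past 1e-06 on its own. CAVIN2 gave 2.11 on at most 13 counts per library in CAL-29 cells. The lines also differed in culture medium, transfection reagent and siRNA concentration, which cannot be told apart from the cell line.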

How the results depend on the processing

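No member changed the sign of a called value under any alternative run. With every transcript in place of 1 per symbol, the calls over all rows were 7847 in CAL-29 and 9234 in 5637 cells, 13990 for the interaction and 23374 for the siCtrl contrast, against 4396, 5085, 7757 and 13151, and more features were tested. At an adjusted p below 0.05 the calls were 10206 and 10143. With p below 1e-06 and a log2 fold change of at least 1 in size, 1513 and 1061 genes were called, of them 2 members in CAL-29 (CAV1, CAVIN3) and 1 in 5637 cells (EHD2). EHD4 and PACSIN3 passed 1e-06 in CAL-29 cells without a filter and in DESeq2, PACSIN3 also with total counts, the likelihood ratio test and the joint model. Leaving out 1 library gave 5 to 8 members called in CAL-29 cells, 5 to 6 in 5637 cells and 3160 to 5533 and 4219 to 4952 genes. The replicate numbers were not treated as pairs in the main tests, and whether they pair the samples was not settled. Same-numbered libraries correlated at 0.167, 0.028 and 0.064 in CAL-29 and at 0.154, -0.007 and -0.012 in 5637 cells. Number 1 correlated best with its own number in both lines, but not every library did. With a replicate block, 6194 and 5226 genes and 9 and 6 members were called (EHD4 and PACSIN3 added in CAL-29 cells), and 8007 genes and 9 members (EHD4 added) for the interaction and 13196 and 8 for the siCtrl contrast. Counts without rounding, added after the data were seen, gave 7 and 6 members. The longest transcript per gene was not run, since the transcript lengths of the tables' annotation were not used here. Scaled by total counts, 59.4% of the calls in CAL-29 and 42.8% of those in 5637 cells were higher, against 49.9% and 50.5%. Counts were low for CAVIN2 in both lines and for CAVIN3 in CAL-29 cells, with 68 to 207 per library, and limit their precision.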
